A study of Ovis aries with 6 samples.

Results

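The levels of 9 transcription factor genes known for setting up and keeping the somatic cell lineages of the gonad were followed through the cell types of the sheep ovary. The genes were FOXL2, GATA4, GATA6, WT1, LHX9, TCF21, NR2F2, RUNX1 and RUNX2. They were taken by name from a list drawn up with earlier results of these data known, no level being part of the rule, and all 9 were found among the genes of the deposited matrices.

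The somatic cells of the ovary descend from the coelomic epithelium and the mesenchyme beneath it, where GATA4, WT1 and LHX9 act in the early gonad. Granulosa cells, which surround the oocyte, depend on FOXL2 to keep their identity, while steroid-producing theca cells and the supporting stroma derive from mesenchyme that carries NR2F2 and TCF21. The runt factors RUNX1 and RUNX2 are best known from blood and bone, and both are also used by granulosa cells, RUNX2 mainly around ovulation.

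One ovary of each of 6 Hu ewes was dissociated at estrus and sequenced as a 3′ single-cell library on the 10x Chromium platform. The HLS group held 3 ewes with a litter size of at least 3, and the LLS group held 3 ewes with a litter size below 2 as the labels give it. No pairing of ewes between the groups was stated.

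The 6 libraries held 7992 to 9135 barcodes and 43329214 to 75549906 UMI (unique molecular identifiers, each counting 1 captured RNA molecule), with a median of 3192 to 8349.5 UMI per barcode. After removal of poor barcodes and of 2007 called doublets (5.22% of those that passed), 36457 cells remained in 30 clusters. Any pair of libraries shared 13 to 28 barcode sequences. Clusters were named only from marker genes, and the 9 factors were left out of the markers and of the genes used to cluster, although the study itself used TCF21 and WT1 as markers. Genes that vary together with the factors did take part in the clustering.

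The named classes were 14310 endothelial-like, 8289 stromal-like, 2955 granulosa-like, 2700 immune-like, 2652 perivascular-like, 1923 theca-like, 792 lymphatic endothelial-like, 421 B-like, 332 epithelial-like and 136 Schwann-like cells, with 1700 cycling cells kept apart. Of the markers that gave the names, 10 of 10 granulosa, 5 of 6 theca and 6 of 7 stromal markers were highest in their own class. So were 9 of 9 perivascular, 9 of 9 epithelial and 8 of 9 endothelial markers. As these markers named the classes, the counts do not test the names. The theca marker STAR stood at 0.325 UMI per 10000 in theca-like cells and at 0.349 in immune-like cells. Epithelial-like cells came mostly from LLS replicate 2, and only 4 ewes gave at least 10 of them. Below, a level is the number of UMI of a gene per 10000 UMI of the cells of 1 class in 1 ewe. Levels were compared between classes for 1 gene at a time, since 3′ counts of different genes are not on a common scale. The edgeR and DESeq2 p-values of HLS against LLS rest on the spread between ewes within a class. Those between classes come from joint fits of many classes. They use a spread left after ewe and class that is pooled over all classes in the fit, not only the pair compared. Intervals of shares cover counting error only. Per-ewe values are listed in the order HLS1, HLS2, HLS3, LLS1, LLS2, LLS3.

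Among the cells retained, the 9 factors were found at very different depth. NR2F2 gave 104739 UMI in 66.1% of cells and WT1 gave 42563 UMI in 41.2% of cells. The others gave between 8553 UMI (GATA4) and 15087 UMI (GATA6), except LHX9 with 2601 UMI in 4.89% of cells. Values for LHX9 therefore rest on the fewest molecules. Whether strand was used in counting was not stated, so reads of RUNX2 may not be told apart from those of an overlapping gene such as SUPT3H. That overlap could not be checked, as the genome build is not given in the sources used here.

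**Figure D1:**
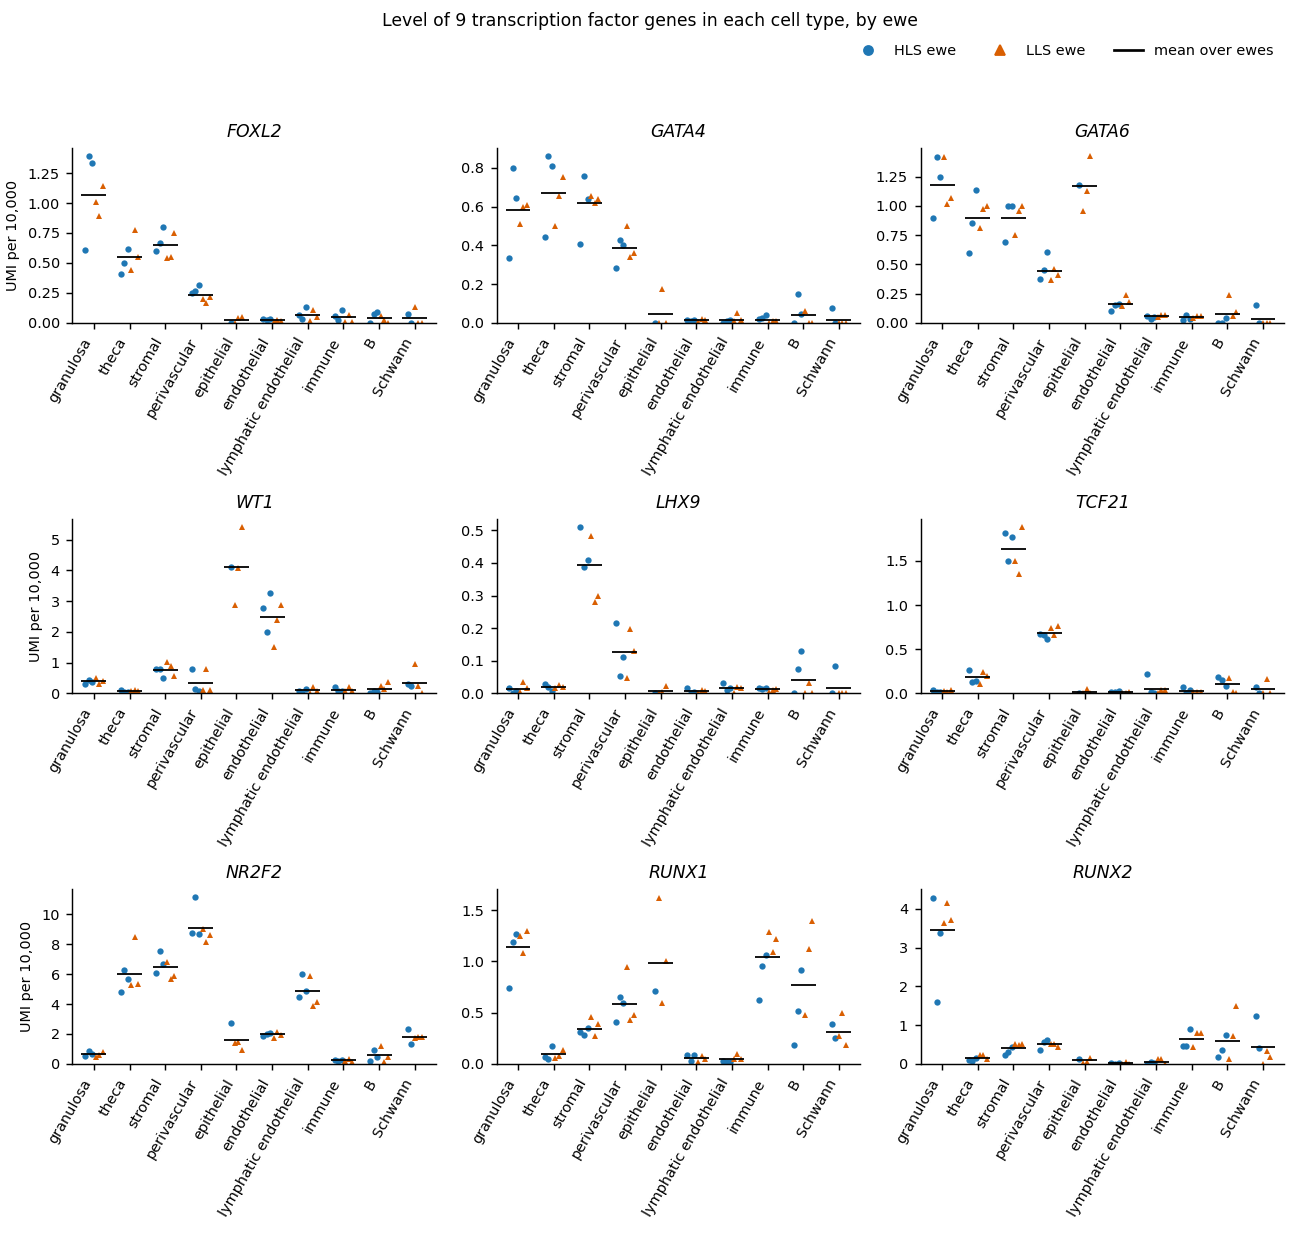
Level of each factor (UMI per 10000, vertical axis) in each cell class (horizontal axis); each point is 1 ewe, circles for HLS and triangles for LLS, and the bar is the mean over ewes. FOXL2, RUNX1 and RUNX2 had their highest mean in granulosa-like cells, LHX9 and TCF21 in stromal-like cells, NR2F2 in perivascular-like cells and WT1 in epithelial-like cells followed by endothelial-like cells. The RUNX1 means of granulosa-like and immune-like cells were close, at 1.14 and 1.04.

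FOXL2, the forkhead factor that maintains the granulosa lineage, had its highest level in granulosa-like cells, at 0.610, 1.389, 1.334, 1.005, 0.895 and 1.146. In stromal-like cells it stood at 0.596, 0.668, 0.797, 0.545, 0.550 and 0.753, and every ewe was lower there than in its own granulosa-like cells, although the ranges of both classes overlapped through the low granulosa value of HLS1. The mean of 0.652 ± 0.106 (SD, n = 6) in stromal-like cells was 61.3% of the granulosa mean of 1.06 ± 0.291. The 10 granulosa markers reached a median of 2.04% of their own granulosa level in stromal-like cells, with a highest value of 9.96%. FSHR, the receptor for follicle-stimulating hormone, stood at 0.565% and INHA, the inhibin alpha subunit, at 0.896%. The part of granulosa RNA in the stromal level of FOXL2 was not tested.

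In theca-like cells FOXL2 stood at 0.405, 0.501, 0.615, 0.440, 0.776 and 0.553. HLS1, HLS2 and LLS1 lay below the range of the stromal-like cells and the other 3 ewes within it. Granulosa markers reached a median of 4.50% of their own level there, with HSD17B1 at 56.4% and INHA at 19.8%, and their part in the theca level of FOXL2 was not tested. Perivascular-like cells had 0.168 to 0.315, and endothelial-like, epithelial-like, immune-like, B-like and Schwann-like cells had means between 0.022 and 0.045.

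Granulosa-like cells exceeded stromal-like cells by a log2 fold change of 0.60 ± 0.22 (SE; adjusted p = 0.0257 by edgeR's quasi-likelihood test over the 6 ewes) and theca-like cells by 0.76 ± 0.23 (adjusted p = 0.00689 by edgeR). The first of these calls was lost with DESeq2 (0.56, adjusted p = 0.133), at the lower cluster resolution (0.50, adjusted p = 0.0687 by edgeR), and when HLS2, HLS3 or LLS2 was left out (0.49, 0.58 and 0.57, with adjusted p of 0.130, 0.0608 and 0.0621 by edgeR). The call against theca-like cells was lost without HLS2 (0.63, adjusted p = 0.0581 by edgeR). FOXL2 in theca-like and stromal-like cells differed by −0.16 ± 0.23, which did not pass the test.

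GATA4 and GATA6, zinc-finger factors that bind steroidogenic and gonadal genes, were shared by all the follicular and stromal classes. GATA4 stood at 0.333, 0.797, 0.646, 0.508, 0.598 and 0.610 in granulosa-like cells and at 0.445, 0.858, 0.808, 0.498, 0.655 and 0.750 in theca-like cells. Stromal-like cells had 0.407 in HLS1 and 0.619 to 0.755 in the other ewes. These 3 classes overlapped throughout, and none of the 3 differences between them passed the test (log2 fold changes of −0.20 ± 0.22 for granulosa against stromal, 0.24 ± 0.22 for theca against stromal and −0.44 ± 0.22 for granulosa against theca). Perivascular-like cells had a mean of 0.385 ± 0.076, cycling cells had one of 0.372, and every other named class had one of at most 0.044. The cycling cells joined unlike clusters, of 990 cells with GATA4 at 0.007 and of 710 cells with 0.785, over all ewes.

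GATA6 reached 1.18 ± 0.218 in granulosa-like cells and 1.17 ± 0.192 (n = 4) in epithelial-like cells. There no GATA4 UMI was found in HLS3, LLS1 and LLS3, which allows a level of up to 0.353, 0.0738 and 0.0700 (3 counts of the cells' UMI), and LLS2 had 0.176. Epithelial-like cells were lower than stromal-like cells in GATA4 by a log2 fold change of −2.81 ± 0.41 (adjusted p = 1.09e-07 by edgeR), and the corresponding value for GATA6 was 0.10 ± 0.18, which did not pass. Stromal-like and theca-like cells had GATA6 means of 0.900 and 0.895, and granulosa-like cells were above stromal-like cells by 0.30 ± 0.14, which did not pass. Endothelial-like cells had low GATA6 (0.104 to 0.236) and next to no GATA4 (0.006 to 0.020).

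WT1, the zinc-finger factor of the coelomic epithelium and its derivatives, stood highest in epithelial-like cells, at 4.123 in HLS3 and 2.878, 4.085 and 5.411 in LLS1, LLS2 and LLS3. Of the 332 epithelial-like cells, 233 lay in a cluster led by the oviduct-type gene OVGP1, described below. Endothelial-like cells came next, at 2.775, 1.994, 3.267, 1.499, 2.400 and 2.890, with 70.9% of their cells holding a WT1 UMI. All 6 endothelial values lay above all 6 stromal values, which ran from 0.491 to 1.029, and the log2 fold change was 1.73 ± 0.29 (adjusted p = 7.68e-07 by edgeR). Epithelial-like cells exceeded stromal-like cells by 2.20 ± 0.34 (adjusted p = 3.29e-07 by edgeR). Granulosa-like cells had 0.310 to 0.486, with a log2 fold change of −1.04 ± 0.29 against stromal-like cells (adjusted p = 0.00293 by edgeR), a call lost at the higher cluster resolution (−0.71, adjusted p = 0.0591 by edgeR).

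Theca-like cells had a WT1 mean of 0.079 and lymphatic endothelial-like cells one of 0.096. To compare shares at 1 depth, each cell was thinned to 2000 UMI and shallower cells were left out. The share with a WT1 UMI was then 34.1% of endothelial-like cells (Wilson 95% interval 33.3 to 34.9, counting error only), 1.91% of lymphatic endothelial-like cells and 1.48% of theca-like cells. Median depths before thinning were 8624, 5798.5 and 14220 UMI, so the class with the highest share was not the deepest. Theca-like cells had the lowest WT1 mean of the classes, and immune-like, B-like and perivascular-like cells had means of 0.115, 0.145 and 0.340. The part of free RNA in these levels and shares was not tested.

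In perivascular-like cells WT1 split the ewes: HLS1 and LLS2 had 0.776 and 0.793, while the other 4 ewes had 0.092 to 0.150. The 9 endothelial markers together reached 5.09 and 6.08 UMI per 10000 in the perivascular-like cells of HLS1 and LLS2, against 2.08 to 5.94 in the other 4 ewes. LLS1 combined a marker sum of 5.94 with a WT1 level of 0.112. The part of endothelial RNA in this split was not tested.

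LHX9, a LIM homeodomain factor of the genital ridge, was highest in stromal-like cells, at 0.510, 0.388, 0.409, 0.481, 0.281 and 0.298. Perivascular-like cells followed at 0.047 to 0.217, and their range did not overlap with the stromal one. Granulosa-like and theca-like cells had means of 0.014 and 0.019, lower than stromal-like cells by log2 fold changes of −5.08 ± 0.36 and −4.41 ± 0.35 (adjusted p = 1.76e-17 and 2.52e-15 by edgeR). In the 323 granulosa-like cells high in INHA and AMH, no LHX9 UMI was found in any ewe, which allows a level of up to 0.00867 over these cells (3 counts of their summed UMI). By contrast, an unnamed sub-cluster of 103 granulosa-like cells had 0.423 over all its cells.

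TCF21, a basic helix-loop-helix factor of mesenchymal progenitors, was also highest in stromal-like cells. Its level was 1.813, 1.497, 1.775, 1.501, 1.350 and 1.885 in stromal-like cells, 0.611 to 0.763 in perivascular-like cells and 0.108 to 0.265 in theca-like cells. These 3 ranges did not overlap. Granulosa-like cells had a TCF21 mean of 0.024, with a log2 fold change of −6.32 ± 0.32 against stromal-like cells (adjusted p = 5.94e-23 by edgeR), and theca-like cells lay below stromal-like cells by −3.09 ± 0.25 (adjusted p = 6.63e-15 by edgeR). At 2000 UMI per cell, 26.1% of stromal-like cells held a TCF21 UMI, against 3.98% of theca-like and 0.419% of granulosa-like cells.

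NR2F2, also called COUP-TFII, is an orphan nuclear receptor of mesenchyme and of venous and lymphatic endothelium. It was highest in perivascular-like cells, at 8.772, 11.118, 8.654, 9.023, 8.161 and 8.589. Stromal-like cells had 6.092, 7.565, 6.659, 6.801, 5.697 and 5.859, and every ewe was higher in its perivascular-like cells. The fitted difference of 0.37 ± 0.18 did not pass the test (adjusted p = 0.116 by edgeR), and it did pass without TMM factors (0.49, adjusted p = 0.0440 by edgeR). Within ewes the log2 difference, from levels scaled to total UMI without TMM factors, was 0.489 with an SD of 0.077. The fitted error drew on all cell types. Why the fitted difference missed the threshold was not tested.

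Theca-like cells had NR2F2 at 4.830, 6.254, 5.640, 5.300, 8.451 and 5.366, with LLS2 above the other 5 ewes. Unlike LHX9, TCF21 and WT1, NR2F2 did not pass the test between theca-like and stromal-like cells (log2 fold change 0.02 ± 0.18, 95% interval −0.34 to 0.37), a value that changed sign with the scaling and with DESeq2. Lymphatic endothelial-like cells had 3.848 to 5.995, endothelial-like cells 1.748 to 2.136 and granulosa-like cells 0.437 to 0.837. Granulosa-like cells lay below stromal-like cells by −3.43 ± 0.20 (adjusted p = 2.10e-20 by edgeR).

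RUNX1 stood at 0.737 in the granulosa-like cells of HLS1 and at 1.081 to 1.298 in those of the other 5 ewes. Immune-like cells, in which RUNX1 acts in blood lineages, had 0.625 to 1.291, and epithelial-like cells 0.598 to 1.623. Granulosa-like cells were above immune-like cells in 4 of 6 ewes. Taken alone, the C1QA cluster of the immune-like cells, described below, had a mean of 1.49, above the granulosa mean of 1.14. A B-like cluster of 156 cells, 84.6% of them from LLS2, had 1.85 over its cells. Perivascular-like cells were intermediate at 0.406 to 0.949, and theca-like cells were low at 0.045 to 0.170. Granulosa-like cells exceeded stromal-like cells by a log2 fold change of 1.64 ± 0.27 and theca-like cells by 3.34 ± 0.32 (adjusted p = 1.71e-06 and 6.92e-13 by edgeR).

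RUNX2 was highest in granulosa-like cells, at 4.292, 1.587, 3.385, 3.628, 4.141 and 3.726. HLS2 was below all others here but highest in the mural state described below. Immune-like cells came next at 0.440 to 0.890, and no ewe of any other named class reached the lowest granulosa value. Taken alone, the CD3E cluster of the immune-like cells, described below, ran from 0.910 to 2.035 and overlapped the granulosa range. The log2 fold change was 2.93 ± 0.30 against stromal-like cells and 4.41 ± 0.34 against theca-like cells (adjusted p = 6.22e-12 and 5.74e-16 by edgeR).

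Counted over the factors, 7 of 9 passed the test between granulosa-like and stromal-like cells, 3 higher in granulosa-like cells (FOXL2, RUNX1, RUNX2) and 4 lower (WT1, LHX9, TCF21, NR2F2). Of all genes tested in that comparison 43.3% passed, 20.2% higher and 23.1% lower, so a call by itself says little and the sizes above carry the result. Between theca-like and stromal-like cells 5 of 9 factors passed, all lower in theca-like cells (WT1, LHX9, TCF21, RUNX1, RUNX2), against 41.2% of all genes and 22.9% that were lower. The median log2 fold change of the factors was −0.20 and −1.48 in these comparisons, and that of all genes −0.03 and −0.05. Between granulosa-like and theca-like cells 6 of 9 passed, 4 higher and 2 lower, against 40.1% of all genes (19.9% higher and 20.2% lower). Epithelial-like cells differed from stromal-like cells in 8 factors and from granulosa-like cells in 5, against 37.1% and 40% of all genes. Perivascular-like cells were lower than stromal-like cells in 6 factors (30.9% of all genes called, 16.3% lower) and higher in none that passed. All 9 factors passed for endothelial-like and for immune-like cells against stromal-like cells, where 56.7% and 62.9% of all genes passed.

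The order of the classes was also tested between neighbours within each ewe. Of 81 neighbouring pairs over the 9 factors, 23 went the same way in every ewe and 17 had an unadjusted p under 0.05 by an exact two-sided sign-flip test, whose smallest possible p with 6 ewes is 0.03125. With that smallest p, a pair could not pass after adjustment over the 81 pairs here (smallest adjusted p = 0.149 in this exact test), so these p-values say nothing on the order either way. The pairs that went the same way in all 6 ewes included stromal over perivascular and perivascular over theca for TCF21, perivascular over stromal for NR2F2, and granulosa over immune for RUNX2.

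Granulosa-like cells were divided again into states named from published markers: early (775 cells), high in INHA and AMH (323), mural (500) and cycling (187), with 1170 cells left unnamed. One of the mural sub-clusters was led by the interferon-induced genes MX1 and ISG15 and held 322 of the 500 cells, 54.7% of them from LLS2. Of the cells high in INHA and AMH, 83 formed a sub-cluster led by LHCGR and CYP19, 72.3% of them from LLS1. The 10 leading genes of this sub-cluster included INHA but not AMH. Only 7 of the 9 factors could be tested between states, since LHX9 and TCF21 were too low.

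**Figure D2:**
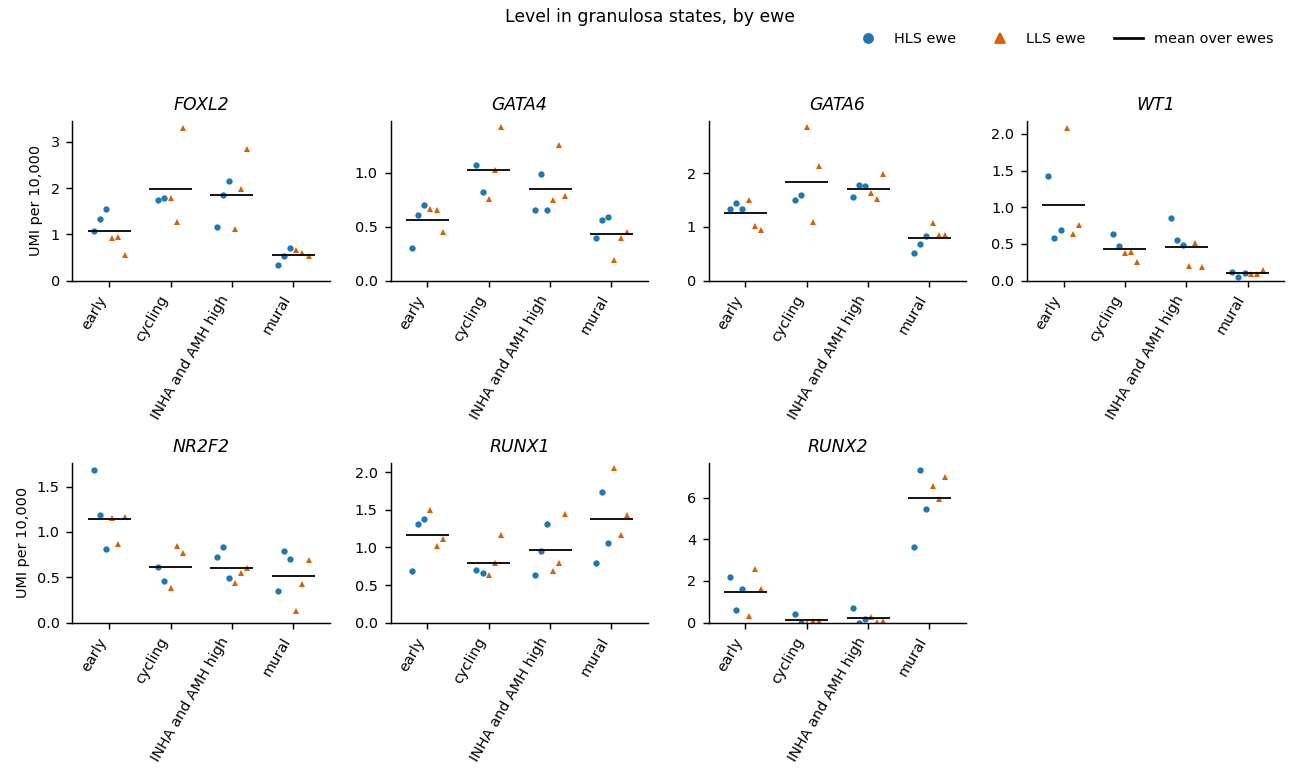
Level of 7 factors (UMI per 10000, vertical axis) in 4 granulosa states; each point is 1 ewe, circles for HLS and triangles for LLS, and the bar is the mean over ewes. RUNX2 lay between 3.65 and 7.30 in the mural state and at or below 0.726 in the INHA and AMH high state, while FOXL2 and WT1 were lowest in the mural state.

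RUNX2, a target of luteinizing hormone signalling in other species, marked the mural state. Its levels there were 3.650, 7.303, 5.463, 6.562, 5.932 and 6.974. Early cells had 2.202, 0.583, 1.592, 0.309, 2.570 and 1.624, and cells high in INHA and AMH had 0.726, 0, 0.189, 0.250, 0.019 and 0.060. The mural values did not overlap with either. The log2 fold change of mural cells was 1.96 ± 0.43 over early cells and 5.21 ± 0.58 over cells high in INHA and AMH (adjusted p = 0.000482 and 4.56e-08 by edgeR), and the first missed the threshold with DESeq2 (2.06, adjusted p = 0.0602). Cells high in INHA and AMH lay below early cells by −3.24 ± 0.61 (adjusted p = 0.000339 by edgeR), and at the lower cluster resolution, which draws the states differently, this difference took the opposite sign (1.86, adjusted p = 0.00808 by edgeR). At 2000 UMI per cell, 61.8% of mural cells and 2.71% of cells high in INHA and AMH held a RUNX2 UMI, against 0.362% of endothelial-like cells. An unnamed sub-cluster of 568 cells led by GCG and MMP1 had a RUNX2 level of 6.08, close to the mural one. Within the INHA and AMH high state, the 83 cells led by LHCGR and CYP19 had RUNX2 at 0.292. The 240 cells led by IHH and AMH had 0.118.

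FOXL2 went the other way. Cells high in INHA and AMH had 1.154, 1.850, 2.156, 1.113, 1.979 and 2.835, early cells 1.079, 1.331, 1.556, 0.928, 0.932 and 0.546, and mural cells 0.339, 0.542, 0.698, 0.663, 0.600 and 0.534. Of these 3 states, every ewe was highest in the first and lowest in the mural state, with close values in LLS3 (0.546 and 0.534). The first state was not uniform, by values over all ewes that were not tested. Its 240 cells led by IHH and AMH had FOXL2 at 1.97 and WT1 at 0.557. Its 83 cells led by LHCGR and CYP19 had 0.754 and 0.049. The mural sub-clusters had FOXL2 at 0.653 and 0.487 and WT1 at 0.080 and 0.134. Cycling granulosa cells, which had at least 10 cells in 5 ewes, ran from 1.274 to 3.303. Mural cells lay below early cells by a log2 fold change of −0.98 ± 0.24 and below cells high in INHA and AMH by −1.70 ± 0.23 (adjusted p = 0.00139 and 1.32e-06 by edgeR). The rise of 0.72 ± 0.23 from early cells to cells high in INHA and AMH (adjusted p = 0.0219 by edgeR) was lost without LLS2 or LLS3 (0.66 and 0.49, adjusted p = 0.0757 and 0.0605 by edgeR) and vanished at the lower cluster resolution (−0.0015).

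GATA4 and GATA6 declined with FOXL2 in mural cells. Against cells high in INHA and AMH, mural cells were lower by −1.02 ± 0.20 for GATA4 and −1.11 ± 0.17 for GATA6 (adjusted p = 0.000174 and 7.80e-06 by edgeR), and the value of GATA4 was −0.51 at the lower cluster resolution (adjusted p = 0.0670 by edgeR). GATA6 stood at 1.527 to 1.990 in the cells high in INHA and AMH and at 0.516 to 1.069 in mural cells, without overlap. RUNX1 showed a weak difference of 0.46 ± 0.19 between the same states (adjusted p = 0.0479 by edgeR), with overlapping ranges of 0.787 to 2.052 and 0.627 to 1.447. It was lost without HLS1, HLS2, LLS1 or LLS2 and lay at 0.22 without LLS1.

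WT1 was lowest in mural cells, at 0.052 to 0.141, against 0.583 to 2.078 in early cells, with HLS1 (1.425) and LLS1 (2.078) high among them. The log2 fold change of mural against early cells was −3.18 ± 0.31 (adjusted p = 5.16e-09 by edgeR). Cells high in INHA and AMH had 0.181 to 0.857, lower than early cells by −0.96 ± 0.28 (adjusted p = 0.0116 by edgeR), which was lost without LLS1 (−0.53, adjusted p = 0.0508 by edgeR). NR2F2 was higher in early cells (0.810 to 1.684) than in mural cells (0.128 to 0.786), with a log2 fold change of −1.13 ± 0.22 for mural cells (adjusted p = 0.000144 by edgeR).

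Early cells were not uniform. Their 316 cells led by PTPRD and MME had WT1 at 2.08, NR2F2 at 1.90 and RUNX2 at 0.351, while their 459 cells led by CCN3 and ANGPT2 had 0.278, 0.615 and 2.06. These are values over all ewes and were not tested, because both sub-clusters were found in these same cells. Between states, 4 of 7 factors passed for cells high in INHA and AMH against early cells, 5 for mural against early cells and 6 for mural cells against cells high in INHA and AMH, where 25.6%, 44.9% and 44.6% of all genes passed.

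Stromal-like cells were divided into cells responsive to Hedgehog signalling (PTCH1, GLI1, HHIP; 2010 cells), adventitial cells (PI16, DPT, MFAP5; 1620 cells) and cells led by contractile genes (ACTA2, TAGLN, DES; 1971 cells), with 2688 left unnamed. A Hedgehog-responsive mesenchyme lies around growing follicles and gives rise to theca, as background. The contractile group was named from its leading genes after the sub-clusters had been seen. In LLS2 only 27 cells fell into the Hedgehog-responsive group, so its values for that ewe are the least precise. A sub-cluster of 388 cells, all from LLS2, was left unnamed although the Hedgehog-responsive markers were its best list. Over its cells WT1 stood at 0.175, LHX9 at 0.0875, FOXL2 at 0.930 and GATA4 at 0.933. The few named cells therefore do not show that LLS2 lacked this kind of stroma.

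**Figure D3:**
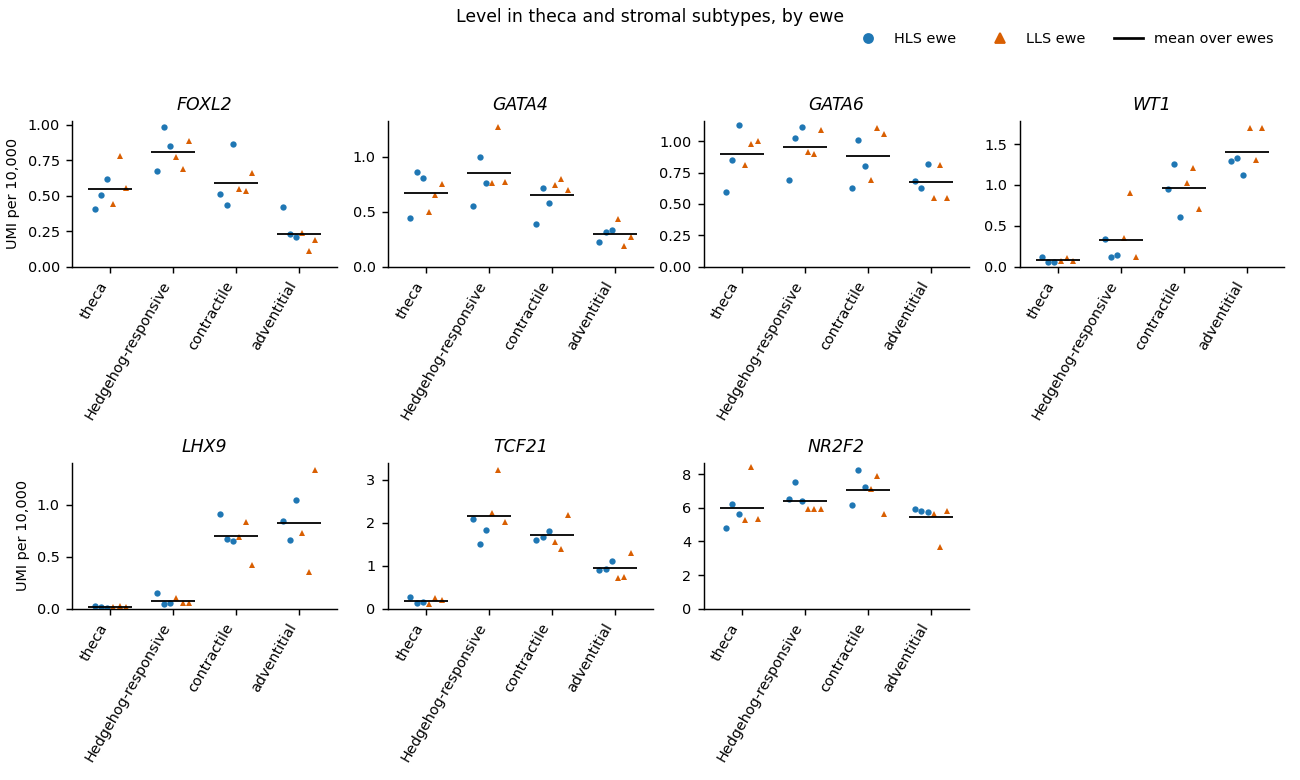
Level of the factors (UMI per 10000, vertical axis) in theca-like cells and 3 stromal subtypes; each point is 1 ewe, circles for HLS and triangles for LLS, and the bar is the mean over ewes. LHX9 and WT1 were high in adventitial and contractile stroma and low in Hedgehog-responsive stroma and theca-like cells, while NR2F2 was present in all 4.

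LHX9 was lower in Hedgehog-responsive cells than in both other subtypes taken as wholes. It stood at 0.843, 0.659, 1.046, 0.725, 0.355 and 1.340 in adventitial cells and at 0.917, 0.672, 0.650, 0.687, 0.832 and 0.419 in contractile cells. Hedgehog-responsive cells had 0.148, 0.043, 0.057, 0.104, 0.053 and 0.054, below both other subtypes in every ewe and without overlap. The log2 fold change of Hedgehog-responsive cells was −3.52 ± 0.31 against adventitial and −3.28 ± 0.31 against contractile cells (adjusted p = 1.79e-08 and 1.61e-07 by edgeR). Theca-like cells, at 0.007 to 0.028, were lower still. Low LHX9 was not particular to Hedgehog-responsive cells. An adventitial sub-cluster of 218 cells, 97.7% of them from LLS2, had 0.009 over its cells. The other adventitial sub-clusters had 1.09 and 0.447.

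WT1 was also lowest in Hedgehog-responsive cells of every ewe. It stood at 1.127 to 1.701 in adventitial and 0.610 to 1.260 in contractile cells. Hedgehog-responsive cells had 0.333, 0.114, 0.136, 0.346 and 0.118 in 5 ewes and 0.902 in LLS2, the ewe with 27 such cells. They lay below adventitial cells by −2.71 ± 0.28 (adjusted p = 1.46e-07 by edgeR). Between adventitial and contractile cells WT1 differed by 0.60 ± 0.24, which missed the threshold (adjusted p = 0.0705 by edgeR) and passed under 7 of the alternatives.

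FOXL2, GATA4 and TCF21 took the opposite direction and were called against adventitial cells only. Their means in Hedgehog-responsive cells (0.809, 0.852 and 2.15) also lay above those in contractile cells (0.591, 0.655 and 1.70). None of the factors was called higher in Hedgehog-responsive than in contractile cells. FOXL2 stood at 0.670 to 0.984 in Hedgehog-responsive, 0.433 to 0.861 in contractile and 0.113 to 0.418 in adventitial cells. The log2 fold changes of Hedgehog-responsive over adventitial cells were 1.75 ± 0.21 for FOXL2, 1.45 ± 0.17 for GATA4, 1.08 ± 0.16 for TCF21 and 0.45 ± 0.14 for GATA6 (adjusted p = 1.36e-06, 9.61e-07, 1.40e-05 and 0.0101 by edgeR). The value of GATA6 was 0.36 (adjusted p = 0.136 by edgeR) without HLS2 and LLS1 together and 0.25 (adjusted p = 0.232 by edgeR) at the higher cluster resolution. NR2F2 ran from 5.944 to 7.563 in Hedgehog-responsive and from 5.619 to 8.254 in contractile cells, and from 5.620 to 5.936 in the adventitial cells of 5 ewes with LLS2 at 3.653. One adventitial sub-cluster of 218 cells came almost wholly from LLS2 (97.7%).

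The count of factors called was 6 of 9 for Hedgehog-responsive against adventitial cells, 2 of 9 for Hedgehog-responsive against contractile cells and 4 of 9 for adventitial against contractile cells, where 49.2%, 28% and 27.6% of all genes passed. The 4 factors of the last comparison, FOXL2, GATA4, TCF21 and NR2F2, were all lower in adventitial cells (13.3% of all genes), and the call of NR2F2 was lost without HLS2, LLS1 or LLS2 (log2 fold changes of −0.33, −0.36 and −0.22).

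Endothelial-like cells were kept as clusters, each named here by 1 of its leading genes: GJA5, a connexin of arteries, CA4, a carbonic anhydrase of capillaries, SELP, the P-selectin of venules, ESM1 and APLN, which are expressed by sprouting vessels. The comparisons between these clusters were added after the clusters had been seen. The ESM1 cluster came mainly from HLS2 and LLS1, with 1910 and 2314 of its 4332 cells.

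**Figure D4:**
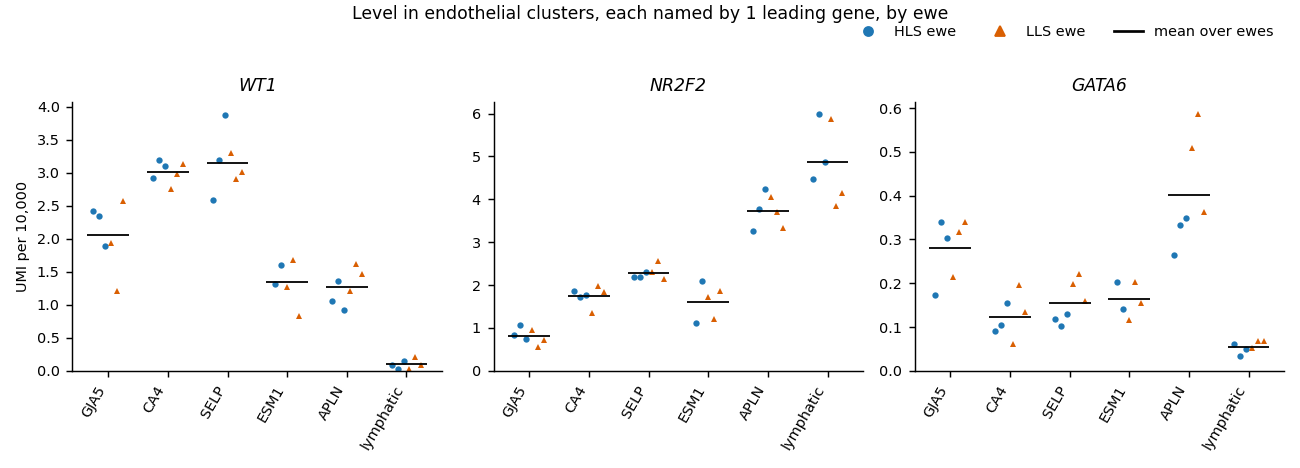
Level of WT1, NR2F2 and GATA6 (UMI per 10000, vertical axis) in 5 endothelial clusters and in lymphatic endothelial-like cells; each point is 1 ewe with at least 10 cells, circles for HLS and triangles for LLS, and the bar is the mean over ewes. WT1 was highest in the SELP and CA4 clusters and near 0.1 in lymphatic cells, where NR2F2 was highest.

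NR2F2 stood at 0.836, 1.070, 0.745, 0.960, 0.550 and 0.724 in the GJA5 cluster and at 2.191, 2.192, 2.295, 2.309, 2.570 and 2.139 in the SELP cluster, without overlap. The log2 fold change over the GJA5 cluster was 1.65 ± 0.16 for SELP, 1.21 ± 0.16 for CA4 and 1.0 ± 0.18 for ESM1 cells (adjusted p = 1.46e-12, 2.92e-08 and 1.28e-05 by edgeR). The APLN cluster had 3.264 to 4.235, overlapping the range of the lymphatic endothelial-like cells. GATA6 also had its highest mean of these clusters in the APLN cluster, at 0.265 to 0.586, and stood at 0.174 to 0.341 in the GJA5 cluster. In the other clusters it went opposite to NR2F2 against GJA5 cells. Its log2 fold changes were −0.70 ± 0.19, −1.04 ± 0.19 and −0.89 ± 0.22 for SELP, CA4 and ESM1 cells (adjusted p = 0.00218, 2.25e-05 and 0.00160 by edgeR). The first was lost without doublet removal (−0.38, adjusted p = 0.124 by edgeR) and at the higher cluster resolution (−0.12), and the third without HLS2 and LLS1 together (−0.65, adjusted p = 0.356 by edgeR).

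WT1 was present in all of these blood vessel clusters. The SELP cluster had 2.589 to 3.880 and the CA4 cluster 2.752 to 3.203, while the GJA5 cluster had 1.217 to 2.576, the ESM1 cluster 0.835 to 1.682 in 5 ewes and the APLN cluster 0.917 to 1.619. SELP cells exceeded GJA5 cells by 0.79 ± 0.25 (adjusted p = 0.0126 by edgeR). This call was lost with DESeq2 (0.75, adjusted p = 0.0936), without TMM factors (0.60, adjusted p = 0.0636 by edgeR), with the factors kept among the clustering genes (0.51, adjusted p = 0.180 by edgeR) and without HLS3 (0.65, adjusted p = 0.0758 by edgeR), and it vanished at the higher cluster resolution (−0.05). The values for CA4 and ESM1 cells, 0.64 ± 0.25 and −0.61 ± 0.28, did not pass. Of the 9 factors, 4 passed for SELP, 3 for CA4 and 2 for ESM1 against GJA5 cells, where 30.4%, 18.2% and 21.2% of all genes passed. A further cluster of 235 cells led by FABP4 and ACKR1, 77.9% of them from LLS2, had WT1 at only 0.189.

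The epithelial-like cells fell into clusters led by OVGP1, an oviduct-type secreted glycoprotein (233 cells), by CCDC39, a gene of motile cilia (67 cells), and by PRG4. WT1 stood at 2.413 to 4.561 in the OVGP1 cluster over 4 ewes, at 8.146 and 6.851 in the CCDC39 cluster of LLS2 and LLS3, and at 2.527 in the PRG4 cluster, whose 32 cells all came from LLS2. The last 2 clusters have too few ewes for a test.

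Perivascular-like cells were split into a cluster led by RGS5, a pericyte gene, and one that expressed PLN, a calcium pump regulator of smooth muscle. TCF21 stood at 0.761 to 0.950 in the RGS5 cluster and at 0.209 to 0.420 in the PLN cluster, without overlap, with a log2 fold change of 1.44 ± 0.26 (adjusted p = 9.20e-06 by edgeR). NR2F2 had means of 8.95 and 9.05 in both. In all, 4 of 9 factors were higher in the RGS5 cluster (FOXL2, GATA6, LHX9, TCF21), against 29.9% of all genes called and 17.3% called higher. Only TCF21 and GATA6 passed without HLS2 or without HLS3. The call of LHX9 was also lost without LLS1 and without LLS2 (adjusted p = 0.0870 and 0.0618 by edgeR), and that of FOXL2 with DESeq2 (adjusted p = 0.0578).

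Immune-like cells held a cluster with CD3E and GNLY, of T and natural killer cells, and one with C1QA, of macrophages. The runt factors divided between them. RUNX1 had 1.049, 1.340, 1.698, 1.583, 1.489 and 1.784 in the C1QA cluster and 0.130 to 0.382 in the CD3E cluster. RUNX2 had 0.910, 1.317, 1.854, 1.493, 2.035 and 1.561 in the CD3E cluster and 0.027 to 0.391 in the C1QA cluster. Neither pair of ranges overlapped, and the log2 fold change of CD3E over C1QA cells was −2.45 ± 0.28 for RUNX1 and 3.57 ± 0.31 for RUNX2 (adjusted p = 2.15e-11 and 1.50e-15 by edgeR). Altogether 8 of 9 factors were called, against 44.3% of all genes, but the other 6 were low, at most 0.643 for NR2F2, 0.339 for WT1 and 0.140 for the remaining 4, in either cluster.

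Between HLS and LLS ewes no factor passed the test in any class. The comparison was made in 9 classes, the 6 larger cell types and 3 granulosa states, and gave 69 tests of a factor in a class, 0 of which passed by edgeR (smallest adjusted p = 0.829) and 4 of which had an unadjusted p under 0.05. The background was the same, since 0% of all genes passed in each of the 9 classes by edgeR, with 178 to 652 genes at an unadjusted p under 0.05. The shares by class were 4.98% for granulosa-like cells, 4.74% for stromal-like cells, 4.55% for immune-like cells, 3.61% for theca-like cells, 2.76% for perivascular-like cells and 1.19% for endothelial-like cells. They were 5% in cells high in INHA and AMH, 3.53% in early and 3.98% in mural granulosa cells. DESeq2 also called no factor, and its largest count of genes was in immune-like cells, with 19 higher and 4 lower. The widest 95% interval of a factor spanned 1.97 on the log2 scale to either side, so differences of that size could not be resolved for every factor. Smaller differences could be missed too. In simulated counts, a fold of 2 between HLS and LLS was recovered for 10.2% of changed genes in granulosa-like cells. The share was 23.7% in stromal-like cells.

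**Figure D5:**
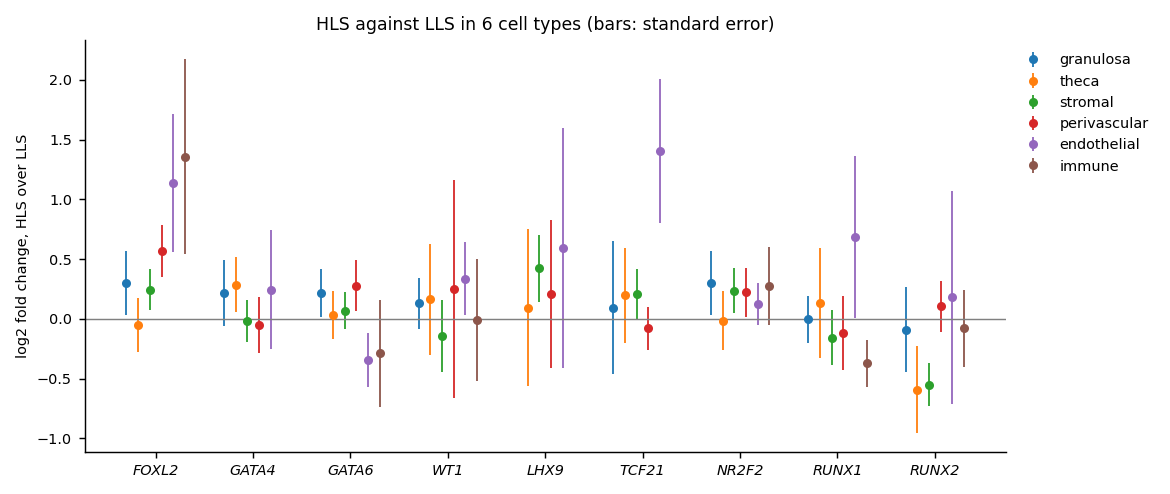
Log2 fold change of HLS over LLS (vertical axis) for each factor in 6 cell types, with bars of 1 standard error from edgeR (n = 3 ewes per group). No difference shown was called, the lowest adjusted p being 0.829.

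The 4 values with an unadjusted p under 0.05 were the following. FOXL2 in early granulosa cells was 1.079, 1.331 and 1.556 in HLS and 0.928, 0.932 and 0.546 in LLS ewes, all 3 HLS values above all LLS values, with a log2 fold change of 0.89 ± 0.26 (unadjusted p = 0.00489, adjusted p = 1.0 by edgeR). RUNX2 in stromal-like cells was 0.234, 0.315 and 0.445 in HLS and 0.506, 0.498 and 0.522 in LLS ewes, again without overlap (−0.55 ± 0.18, unadjusted p = 0.0153, adjusted p = 0.829 by edgeR). At the higher cluster resolution the latter value was −0.01.

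WT1 in cells high in INHA and AMH was 0.857, 0.554 and 0.481 in HLS and 0.204, 0.509 and 0.181 in LLS ewes, with LLS2 inside the HLS range (1.05 ± 0.45, adjusted p = 0.878 by edgeR). In this state HLS1 and LLS3 had only 21 and 22 cells. Its 83 cells led by LHCGR and CYP19, with WT1 at 0.049 over all ewes, came to 72.3% from LLS1. The part of this mix in the WT1 values was not tested. FOXL2 in perivascular-like cells was 0.249, 0.267 and 0.315 in HLS and 0.197, 0.168 and 0.217 in LLS ewes, without overlap (0.57 ± 0.22, adjusted p = 1.0 by edgeR). These values failed the correction.

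In all granulosa-like cells the HLS effect on FOXL2 was 0.30 ± 0.27 and in stromal-like cells 0.25 ± 0.17. A test of whether the effect differed between granulosa-like and stromal-like cells called 0 of 9 factors and 0% of all genes by edgeR, with 284 genes (1.99%) at an unadjusted p under 0.05. DESeq2 called 0 genes as well, with 143 at an unadjusted p under 0.05. The test could not be made in epithelial-like cells, where only 1 HLS ewe had enough cells.

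Across 17 classes (the named types, granulosa states and stromal subtypes, which share libraries and partly share cells), the means of FOXL2 and GATA4 ran most closely together (Pearson r = 0.97 of log2 levels, as a description), and GATA4 was the nearest of 15315 genes to FOXL2. FOXL2 was followed by MKX and GRK4 (both 0.96). LHX9 and TCF21 had r = 0.90 with each other, while the genes nearest to LHX9 were ADAM33 (0.98) and RXFP1 (0.97, after LOC121820797), and those nearest to TCF21 were SPON1 (0.97), the Hedgehog effector GLI2 (0.95) and SYT1 (0.95). The genes nearest to GATA6 were CIBAR1, TBC1D19 and CARMIL1 (0.96, 0.96 and 0.95), and those nearest to NR2F2 were WASF3 (0.92), LOC105603042 (0.92) and MEGF6 (0.89). The nearest genes to WT1, RUNX1 and RUNX2 were LOC121819109 (0.92), PAK1 (0.86) and NIPAL1 (0.82). RUNX1 and RUNX2 had r = 0.62, and NR2F2 and RUNX1 had −0.63.

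Genes that work with these factors were followed as lists. Of 17 tested other lineage factors, 5 were higher and 9 lower in granulosa-like than in stromal-like cells, where 20.2% of all genes were higher and 23.1% lower. Among them NR5A2, a nuclear receptor of granulosa cells, rose by 5.96 ± 0.25, while GLI2 and NR2F1, the closest relative of NR2F2, had log2 fold changes of −6.01 ± 0.41 and −3.67 ± 0.24. In theca-like against stromal-like cells 1 of the 17 was higher and 9 were lower, beside 41.2% of all genes called and 22.9% called lower. The genes named there were NR5A1, the steroidogenic factor SF-1, at 2.39 ± 0.29 and EMX2, SOX9 and GLI2 at −2.53 ± 0.27, −2.41 ± 0.33 and −2.17 ± 0.28. Some of these genes were variable and thus took part in the clustering.

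Of 9 tested cofactors, 2 were higher and 3 lower in granulosa-like than in stromal-like cells, a count near the 43.3% of all genes that were called. CBFB, the partner that runt factors need to bind DNA, was higher by 1.38 ± 0.15, while LDB2 and LDB1, which bind LIM homeodomain factors such as LHX9, and ZFPM2, a GATA cofactor, had −2.33 ± 0.29, −0.81 ± 0.14 and −1.03 ± 0.26. In mural against early granulosa cells 2 of 8 tested cofactors were higher and 2 lower, which is near the 44.9% of all genes called, with CBFB at 1.16 ± 0.19 and the GATA cofactor ZFPM1 at −1.82 ± 0.35. Among the other lineage factors there, SOX9 had 2.60 ± 0.36. All of these values passed the edgeR test. The granulosa programme (13 higher and 1 lower of 15 in granulosa-like against stromal-like cells) and the steroidogenic programme (10 higher of 10 in theca-like against stromal-like cells) hold genes that named these classes, so their counts are no result about them.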

How the data were processed

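The authors deposited a matrix of raw UMI counts per gene and barcode for each ewe. Cell Ranger and STAR are named in the submitters' processing notes, and the genome build is not given in the sources used here. Barcodes with at least 200 genes and 1000 UMI, a complexity of at least 0.7, at most 10% mitochondrial and at most 5% haemoglobin UMI were retained. Doublets were scored against 2 simulated doublets per cell and removed at 0.8% per 1000 cells. Cells were clustered with leidenalg 0.10.2 (2000 variable genes without the 9 factors, 30 components, resolution 0.8) in Python 3.11.15. Counts were summed per ewe and class where at least 10 cells were present and tested with edgeR 4.0.16 in R 4.3.3 (quasi-likelihood, TMM factors, Benjamini-Hochberg adjustment over all genes tested, threshold 0.05). Classes were compared with the ewe as a block and HLS with LLS without one, since no pairing of ewes was stated. Cell types were fitted together, and so were granulosa states and stromal subtypes. Endothelial, perivascular, immune and epithelial clusters shared a further fit. DESeq2 1.42.0 was an alternative. Scripts were tested on simulated data.

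The factors and gene lists were chosen with earlier results of these data known. All 9 factors are named. Of each list (other lineage factors, cofactors, granulosa programme, steroidogenic programme), genes that passed and were among the 4 largest changes could be named, as could the 3 genes most correlated with each factor. Comparisons of endothelial, perivascular and immune clusters and of contractile stroma were added after the clusters were seen. A planned stromal group marked by PENK was not found. Some genes of the list of other lineage factors are not reported here by name.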

Additional observations from a re-analysis of the deposited data

Results flagged for a closer look

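In 9 of 96 levels tested with 4 to 6 ewes, 1 ewe stood apart from the others, and chance alone gives about 1 in 20, or 4.8. GATA4 in stromal-like cells was 0.407 in HLS1, against 0.619 to 0.755 in the other ewes. RUNX1 in granulosa-like cells was 0.737 in HLS1, against 1.08 to 1.30. FOXL2 in mural granulosa cells was 0.339 in HLS1, against 0.534 to 0.698. RUNX2 in granulosa-like cells was 1.59 in HLS2, against 3.39 to 4.29. In the mural state HLS2 had the highest RUNX2 level, 7.30, and only 46 of its 462 granulosa-like cells were mural. The part of the mix of states was not tested. NR2F2 in perivascular-like cells was 11.1 in HLS2, against 8.16 to 9.02. GATA6 in the RGS5 perivascular cluster was 0.854 in HLS3, against 0.397 to 0.518. NR2F2 was 1.52 in the cycling cells of LLS1, against 3.14 to 4.69, and 1.35 in the CA4 endothelial cluster of LLS1, against 1.73 to 1.97. The cycling cells joined a cluster of 990 cells, 47.7% of them from LLS1, with NR2F2 at 1.49, and one of 710 cells at 5.33. The part of this mix in the cycling value was not tested. NR2F2 in adventitial stroma was 3.65 in LLS2, against 5.62 to 5.94.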

How the results depend on the processing

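Of the values of the factors between classes under the alternatives, 1659 kept their direction and side of the threshold, 72 lost their call, 41 gained one and 13 changed sign. The lower cluster resolution turned FOXL2 (−0.0015), GATA4 (−0.55), GATA6 (−0.39) and RUNX2 (1.86) between cells high in INHA and AMH and early granulosa cells, and RUNX1 (−0.0671) between mural cells and cells high in INHA and AMH. The higher resolution turned WT1 between SELP and GJA5 cells (−0.0482). NR2F2 between theca-like and stromal-like cells turned without TMM factors (−0.11), with DESeq2 (−0.0381), without HLS1 (−0.0025) and without LLS2 (−0.17), and lay between −0.17 and 0.141 over the ewes left out, and GATA6 there turned without TMM factors (−0.0166). GATA6 between epithelial-like and stromal-like cells turned without doublet removal (−0.0046) and with a mitochondrial limit of 20% (−0.0087). The cause was not tested in any of these. Leaving out HLS2 and LLS1 together, chosen after seeing the data, turned NR2F2 between HLS and LLS granulosa-like cells (−0.0729). That value ranged from −0.0729 to 0.580 over the ewes left out.

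The number of factors called was 2 for SELP against GJA5 cells at the higher resolution, 4 for ESM1 against GJA5 cells without doublet removal and 1 without HLS2 and LLS1. It was 4 for CD3E against C1QA cells at the higher resolution and 5 without HLS2 and LLS1. With 1 ewe left out it was 2 to 5 for RGS5 against PLN cells and 4 to 8 for CD3E against C1QA cells. The class highest in GATA6 became epithelial-like (1.17 at the lower resolution, 1.24 without HLS2 and LLS1), also without HLS2, without HLS3 and without LLS1, with a highest mean of 1.17 to 1.24 over the ewes left out, and the class highest in RUNX1 changed at the higher resolution (1.19).

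Whether the replicate numbers pair the ewes was not stated, and correlations of so few pairs of ewes cannot decide it. Of 18 same-numbered pairs over the cell types, 6 had a correlation of deviations over 0.1 (−0.549 to 0.499). All 6 were HLS3 with LLS3, which were positive in every type (0.106 to 0.499), while the pairs numbered 1 and 2 did not exceed 0.0211. HLS2 with LLS1, the ewes left out together above, were also positive in every type, from 0.0445 in theca-like to 0.758 in endothelial-like cells. Their libraries had the highest median UMI per barcode, 6357 and 8349.5. The cause was not tested. With a replicate block, 0 factors were called between HLS and LLS in 9 comparisons, and FOXL2 in early granulosa cells had a log2 fold change of 0.93 (adjusted p = 0.575 by edgeR).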

Other observations

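Several sub-clusters that markers left unnamed carried the factors in their own combination, given as values over all their cells with no test. An unnamed granulosa sub-cluster of 103 cells led by CYTL1 and FATE1, 58.3% of them from LLS2, had FOXL2 at 1.81, WT1 at 1.71 and LHX9 at 0.423, with RUNX2 at 0.0235. An unnamed cluster of 106 cells led by OXT, the oxytocin gene, came almost wholly from LLS3 (99.1%) and had RUNX2 at 2.40, GATA6 at 0.771 and FOXL2 at 0.127. An unnamed stromal sub-cluster of 182 cells with the endothelial genes CA4 and PECAM1 among its leading genes had WT1 at 1.98, and whether its droplets held cells of both types was not tested.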
